A study of Chlamydomonas reinhardtii with 6 samples.

Results

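A pair of RNA-seq libraries of single-celled *Chlamydomonas reinhardtii*, a green alga, were compared: 1 from chemostats switched to low nitrogen and 1 from control chemostats. They are 2 of the 6 libraries of the series, and all 17741 genes of the count table were taken, of which 14409 passed a minimum mean level. Each library held RNA pooled over the chemostats of its treatment, so each side of the comparison was a single value. No test was possible, no p-value is given, and every difference is a description of these libraries.

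Both libraries came from 1 isolate that grew mostly as motile single cells, taken from a line that had been kept without predators and was founded with the wild-type strain cc1009. The isolate grew for 10 days in chemostats, which are continuous cultures with a constant inflow of medium, and then for 5 days under treatment. The medium of the control held 80 µM nitrogen and that of the low-nitrogen treatment 40 µM. The third single-cell library had the nitrogen of the control plus rotifers, small animals that feed on the algae, and was set beside this pair to see which differences were shared by both treatments. An isolate growing as cell groups, from a predation line of the same strain, had gone through the same 3 treatments, and its libraries shared no RNA with those compared here. With 1 isolate for each growth form, a difference is one seen in that isolate.

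Nitrogen is needed for amino acids, nucleotides and chlorophyll, and its supply limits algal growth. When it runs out, *C. reinhardtii* is known to switch on uptake and assimilation of other nitrogen sources, to store starch and oil, to break down parts of its photosynthetic apparatus and to enter the sexual cycle. The treatment here lowered the supply and did not remove it. The gene identifiers are not paired with gene names in the files or in the gene table used, so genes of these pathways were not counted, and the treatment was not checked against marker genes of nitrogen supply. Genes are therefore described by their levels, by their place on the chromosomes, and, for a few genes, by the function that the study gives them.

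The control library held 9054895 counts on genes, the low-nitrogen library 8301199 and the rotifer library 6275095. The cell group libraries held between 5453218 and 7881116 counts. The methods note more unmapped reads in the rotifer treatment, whose total was the lowest of each growth form. The single-cell control library stood apart from the other single-cell libraries in many genes, so results are also given with the rotifer library in its place. Whether that library differs from the others in anything but its treatment was not tested, and this bears on each ratio to control. The rotifer library is the smallest of the 3, so equal counts there mean a higher level. Levels are CPM (counts per 1e+06 counts of the library, after scaling with TMM factors, which are trimmed means of the log ratios between libraries), and a ratio is a difference of log2(CPM + 0.5), which understates differences of genes with few counts. A floor of 3 counts stood at 0.305 CPM in the control library and at 0.356 CPM in the low-nitrogen library. Where a ratio of a gene or run is printed as a fold or with an interval, it is a ratio of CPM without the added 0.5. The calls used the ratio with it. Intervals of ratios are exact 95% intervals from the counts, and they cover counting error only, neither the spread between cultures nor that of library preparation. In RNA from whole cultures, fewer cells of a kind and less RNA per cell cannot be told apart.

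More genes were lower than higher in low nitrogen, and the lower genes lay further from control. Of the tested genes, 1276 (8.86%) were at least 2-fold higher in low nitrogen than in control and 2063 (14.3%) at least 2-fold lower. The imbalance was wider for larger differences, with 176 genes (1.22%) at least 4-fold higher against 684 (4.75%) lower. At least 16-fold, 6 genes were higher and 89 lower. The scaling sets the median log2 ratio close to 0, and it was 0.02. The quartiles were −0.55 and 0.48.

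Counting intervals of these genes come from the same counts as the calls, so they are not independent support for them. The counting interval lay above 1 for all 1276 higher genes and above 2-fold for 614 of them. Of the 2063 lower genes, the interval lay below 1 for 2062 and beyond 2-fold for 1325. Some of the lower genes were close to absent in low nitrogen, where 451 of them stood under 1 CPM and 78 had no count. Over all 14409 tested genes, 565 stood under 1 CPM there. Among the higher genes, 177 stood under 1 CPM in control, against 294 of all tested genes, and 7 had no count there. The lower genes were most frequent among genes of low level, and so, less markedly, were the higher genes. The tested genes were ranked by mean level over the 3 single-cell libraries and put in 5 groups of equal size. In the lowest group 29.1% were lower in low nitrogen and 12.2% higher, against 8.64% and 8.33% in the highest group. The mean includes the low-nitrogen library, so a gene that is low there is moved towards the lowest group by that value. The part of level in this difference was not tested.

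As a share of all counts, the higher genes took up 3.18% of the control library, 8.62% of the low-nitrogen library and 8.84% of the rotifer library. The lower genes took up 12.3% of the control library, 3.48% of the low-nitrogen library and 4.73% of the rotifer library. The genes were called on the ratio of the low-nitrogen library to the control, so the gap between these libraries follows from the choice of genes. In both directions the rotifer library, which was not used for the call, stood near the low-nitrogen library and away from the control. How far the choice alone moves a library away from the control was not tested. In the 3 cell group libraries, the higher genes took up 5.74% to 6.16% and the lower genes 5.14% to 6.57%. These values lay between those of the single-cell control and the single-cell low-nitrogen library. Since the choice of genes sets those single-cell libraries apart, a place between them is not independent of that choice.

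**Figure D1:**
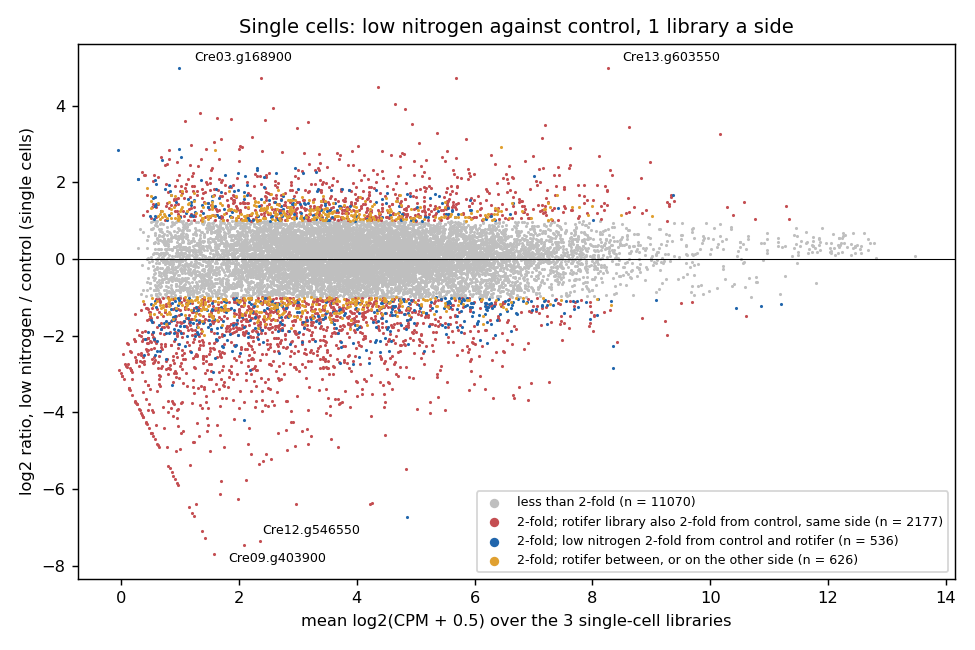
The log2 ratio of low nitrogen to control in single cells (vertical axis) is plotted against the mean level over the 3 single-cell libraries (horizontal axis, log2 of CPM + 0.5), with 1 point for each of the 14409 tested genes and colours for the position of the rotifer library. The lower side reaches further from 0 than the higher side, and most of its far points are genes for which the rotifer library was also at least 2-fold below control.

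The rotifer library shows for which genes both treatments lay on the same side of control. Comparisons with low nitrogen and with rotifers share the control library, so the counts that follow are fixed in part by that library and are not independent of each other. Of the 1276 higher genes, 778 (61.0%) were also at least 2-fold higher in the rotifer library than in control. Of the 2063 lower genes, 1399 (67.8%) were also at least 2-fold lower there. In most of these genes the treatments were near each other, with low nitrogen within 2-fold of rotifers in 697 of the 778 and in 1166 of the 1399. In the others, low nitrogen was at least 2-fold further from control than rotifers in 13 higher and 75 lower genes, and at least 2-fold nearer to it in 68 higher and 158 lower genes. The median log2 ratio of the 1399 genes was −1.88 for low nitrogen against control, −1.99 for rotifers against control and 0.08 for low nitrogen against rotifers. For the 778 genes the same medians were 1.44, 1.69 and −0.19.

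With the rotifer library within 2-fold of control, low nitrogen stood at least 2-fold from both, on the same side, for 181 higher genes (14.2% of the higher genes) and 355 lower genes (17.2% of the lower genes). These are the genes called apart in what follows, and their differences were mostly under 4-fold. The smaller of the 2 ratios, to control or to rotifers, had a median of 1.16 on the log2 scale in the higher genes and 1.26 in the lower genes, and it reached 4-fold in 6 higher and 20 lower genes. In a further 300 higher and 302 lower genes the rotifer library lay within 2-fold of both. Only 17 higher and 7 lower genes had the rotifer library at least 2-fold on the other side of control.

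**Figure D2:**
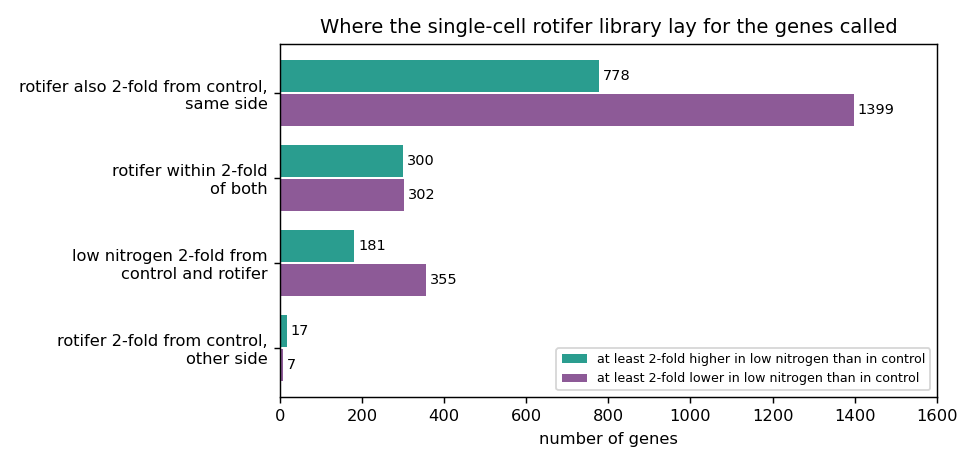
Bars give the number of genes (horizontal axis) at least 2-fold higher or lower in single cells under low nitrogen than in control, by the position of the single-cell rotifer library. The longest bars, 778 higher and 1399 lower genes, are those for which the rotifer library lay at least 2-fold from control on the same side.

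With the control library left out, low nitrogen was set directly against rotifers. At least 2-fold, 1101 genes (7.64%) were higher and 1153 (8.0%) lower in low nitrogen, so the excess of lower genes seen against control was not there against rotifers. The SD of the log2 ratio over tested genes was 1.04 for low nitrogen against control, 1.15 for rotifers against control and 0.74 for low nitrogen against rotifers. Rotifers against control gave 1670 higher genes (11.6%) and 2366 lower genes (16.4%). At least 4-fold, 2.26% of the tested genes were higher and 5.36% lower with rotifers than with control, against 0.833% higher and 0.722% lower in low nitrogen than with rotifers. By these spreads the low-nitrogen library lay nearer to the library of the other treatment than to its own control.

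The cell groups give the same contrast in libraries that share none of the RNA, over the same genes, which were kept by their level in single cells. Low nitrogen against control there gave 914 higher genes (6.34%) and 670 lower genes (4.65%), with an SD of 0.65 on the log2 scale. At least 4-fold, 0.736% were higher and 0.444% lower there. The excess of lower genes in single cells was thus an excess of higher genes in cell groups. Of the 778 higher genes with both single-cell treatments on the same side of control, 64 (8.23%) were at least 2-fold higher under low nitrogen in cell groups and 63 (8.10%) at least 2-fold lower. Of the 1399 lower genes of the same kind, 147 (10.5%) were lower in cell groups and 219 (15.7%) higher. In 758 of these 1399 genes (54.2%) all 3 cell group libraries were themselves at least 2-fold below the single-cell control, and in 255 of the 778 higher genes (32.8%) all 3 were at least 2-fold above it. Both sets were chosen for a single-cell control far from both treatments. The same shares over all tested genes were not taken, so these 2 shares have no background beside them. Neither set leaned, in the cell group contrast, to the direction it had in single cells. In both sets the shares of both directions were above those of all tested genes, 6.34% higher and 4.65% lower.

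Of the 181 higher genes for which low nitrogen stood apart, in cell groups 33 (18.2%) were at least 2-fold higher under low nitrogen and 4 (2.21%) at least 2-fold lower, against 6.34% and 4.65% of all tested genes. Of the 355 lower genes, 28 (7.89%) were lower in cell groups and 24 (6.76%) higher, against 4.65% lower and 6.34% higher over all tested genes. In both sets the share with the direction of the single cells was above that of all genes. The same held for the 778 and 1399 genes above, at 8.23% and 10.5%, and whether the sets differ was not tested. Under the stricter condition that low nitrogen also stood at least 2-fold from both control and rotifers in cell groups, wherever rotifers lay from control there, 19 of the 181 higher genes remained (10.5%, against 465 of all tested genes, 3.23%) and 13 of the 355 lower genes (3.66%, against 314, 2.18%). No test of these shares was made.

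In the 19 genes higher in both growth forms, the log2 ratio to control ran from 1.02 to 2.87 in single cells and from 1.15 to 2.62 in cell groups. The counts of most were small, and 3 with more counts are given by their place. A gene on chromosome 2 from 5266214 to 5270979 had 446 counts in the single-cell control, 197 with rotifers and 1125 in low nitrogen, and 1317, 576 and 5400 counts in the same order in cell groups. A gene on chromosome 4 from 216829 to 225490 had 1149, 798 and 2488 counts in single cells, against 231, 32 and 671 in cell groups. In both genes the low-nitrogen library was the highest of its growth form, while the levels of the 2 growth forms lay far apart. A gene on chromosome 7 from 3987618 to 3995009 was nearly silent in cell groups outside low nitrogen, at 4, 3 and 35 counts, and had 44, 42 and 199 counts in single cells. Among the 13 genes lower in both, a gene on chromosome 9 from 1728553 to 1739846 had 1484, 451 and 273 counts in single cells, against 228, 140 and 82 in cell groups. Its rotifer count was also under that of control, so here low nitrogen was the lowest of 3 graded values.

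The genes with the widest ratios were of both kinds. Cre03.g168900, on chromosome 3 from 3656339 to 3661516, had 182 counts in the single-cell low-nitrogen library, 2 in control and none with rotifers, and 1, 2 and 5 in cell groups under control, rotifers and low nitrogen. It thus passed 5 counts in 1 of the 6 libraries. Its CPM ratio of low nitrogen to control was 106-fold, with a counting interval of 29.0 to 884 that is wide because of the 2 counts in control. With 0.5 CPM added, the log2 ratio was 4.97. Cre13.g603550, on chromosome 13 from 4469470 to 4474932, had 272 counts in control, 6513 with rotifers and 7436 in low nitrogen. It was 31.9-fold higher in low nitrogen than in control (28.3 to 36.2), and rotifers, at 1169 CPM, were above low nitrogen, at 881 CPM. In cell groups it had 288, 144 and 132 counts, so low nitrogen was there lower than control, by −1.26 on the log2 scale.

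On the lower side, Cre09.g403900, on chromosome 9 from 540944 to 544965, had 1022 counts in the single-cell control and none in low nitrogen. It had none with rotifers either, and 1 count in all in the 3 cell group libraries. Set against the floor of 3 counts per library, it was 292-fold lower in low nitrogen and 193-fold lower with rotifers. The counting interval for low nitrogen began at 237-fold. Cre12.g546550, on chromosome 12 from 8671306 to 8675189, had 863 counts in control, 7 with rotifers and none in low nitrogen. Against the same floor it was 246-fold lower in low nitrogen, with a counting interval that began at 200-fold. Unlike the former gene it was on in cell groups, with 254, 120 and 72 counts under control, rotifers and low nitrogen.

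Cre09.g403900 had the most counts of a group of genes seen in the control library alone. In all, 55 genes had at least 30 counts in the single-cell control and at most 3 in each of the 5 other libraries. By the same limits, no gene was seen in the single-cell low-nitrogen library alone, and 1 at most in any other library. The 55 genes had 30 to 1022 counts in control, with a median of 74, and 22 of them had no count in any of the 5 others. Chromosome 17 held 14 of them, chromosome 9 held 10 and chromosome 12 held 7. Of 14284 placed tested genes these chromosomes held 896, 968 and 1443 in that order, so the 7 on chromosome 12 were near its share of genes. Within the single-cell libraries, 110 genes had at least 30 counts in control and at most 3 in both treatments, whereas 1 gene had at least 30 in low nitrogen and at most 3 in control and rotifers. The control library also had the largest total of the 6, and the part of depth in these counts was not tested.

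For a few genes a function is given in the study, which looked at DNA variants shared by isolates of the same growth form. These genes are discussed there for variants of the cell group isolates. Their levels in the 3 single-cell libraries were as follows. Cre10.g452800, described as involved in the response to CO2 stress, had 187 counts in control, 1411 with rotifers and 915 in low nitrogen. It was 5.71-fold higher in low nitrogen than in control (4.88 to 6.72), and in cell groups it had 150, 110 and 297 counts. Low nitrogen was thus above control in both growth forms, and in single cells rotifers were above both. Cre12.g491600, tied to nutrient uptake, had 522, 124 and 176 counts for control, rotifers and low nitrogen and was 2.54-fold lower in low nitrogen than in control (2.14 to 3.03). In cell groups it had 233, 142 and 292 counts, and the log2 ratios of the 2 treatments to control were both within 2-fold there. Cre06.g266300, tied to the viscosity of the cytosol, had 205, 117 and 245 counts and was 1.40-fold higher in low nitrogen than in control (1.15 to 1.69), under the 2-fold limit.

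The other 4 were genes of the extracellular matrix or of secreted proteins. Cre01.g049826, a pherophorin, which is a family of glycoproteins of the extracellular matrix, had 401, 522 and 347 counts in single cells under control, rotifers and low nitrogen, or 40.7, 93.7 and 41.1 CPM, so rotifers stood over 2-fold above both other single-cell libraries. Its ratio of low nitrogen to control was 1.01, with an interval of 0.87 to 1.17. It was higher in all 3 cell group libraries, with 1383, 1633 and 1282 counts. For its variants of interest, the study reported no significant expression difference between single cells and cell groups. Cre12.g522650, linked through its 5′ region to proteins of the matrix, had 929, 434 and 383 counts, or 94.3, 77.9 and 45.4 CPM, and was 2.08-fold lower in low nitrogen than in control (1.84 to 2.35), with an interval that reaches under 2-fold. Cre10.g431050, given as a glycoprotein gene, had 28, 5 and 4 counts, a log2 ratio of −1.78 that rests on few counts. Cre06.g290676, a further gene of the pherophorin family, had 8, 0 and 2 counts and did not pass the minimum level.

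**Figure D3:**
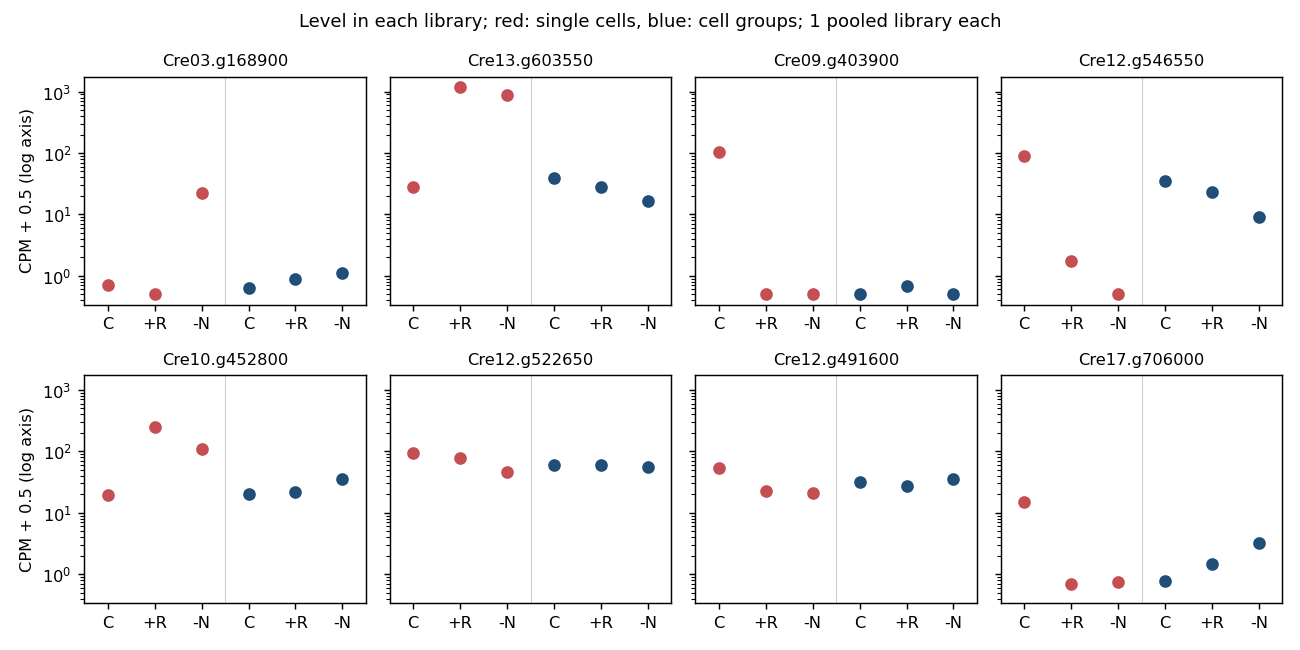
Points give the level (CPM + 0.5, log axis) of 8 genes in each of the 6 libraries, with single cells in red and cell groups in blue and control (C), rotifers (+R) and low nitrogen (-N) from left to right. In most panels the single-cell control stands away from both treatments, while Cre03.g168900 is high in low nitrogen alone, with 182 counts.

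The study's list of genes with variants shared by single-cell isolates held 25 genes, of which 18 passed the minimum level. In low nitrogen 3 of these (16.7%) were at least 2-fold higher than control and 6 (33.3%) at least 2-fold lower, with a median log2 ratio of −0.11, against 8.86%, 14.3% and 0.02 over all tested genes. In 6 of the 18 both treatments lay at least 2-fold from control on the same side, and in 1 of these low nitrogen was also at least 2-fold beyond rotifers. In none was low nitrogen apart with rotifers near control. The widest ratio among those with counts in both libraries belonged to Cre17.g706000, which had 143 counts in control, 1 with rotifers and 2 in low nitrogen, or 61.2-fold lower than control with an interval of 16.6 to 511. In cell groups it had 2, 5 and 23 counts, so it was highest there in low nitrogen. The list for cell group isolates held 19 genes, 18 of them tested, with none at least 2-fold higher and 4 (22.2%) at least 2-fold lower. It was read for genes with amino-acid changes alone, whereas the single-cell list also held genes with variants in their 5′ or 3′ regions, so the lists are not alike. A list of 174 genes that the study shared with an earlier study of predation, and chose on these samples, had 171 tested genes, of which 11 (6.43%) were higher and 19 (11.1%) lower. Since that list was chosen on these samples, it is not independent evidence of a direction.

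Genes lower in low nitrogen were not spread evenly over the genome. Of the tested genes, 14284 have a place on 1 of the 17 chromosomes in the gene table, whose assembly matches the version 5 genome of the files. The share of genes at least 2-fold lower in low nitrogen was 26.7% on chromosome 17, 21.0% on chromosome 1, 18.6% on chromosome 9 and 17.3% on chromosome 12. It was lowest on chromosome 15, at 7.36%, and was 8.80% on chromosome 7. Chromosomes 1, 9, 12 and 17 held 30.6% of the placed genes and 43.8% of the placed lower genes. In low nitrogen against rotifers the share of lower genes on these 4 chromosomes lay between 7.75% and 9.84%, and in cell groups between 4.64% and 6.07%, near the shares over all genes of 8.0% and 4.65%.

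Within chromosomes the lower genes lay in blocks. The placed genes were cut into 560 windows of 25 neighbouring tested genes, and the median log2 ratio was taken in each. The SD of these medians was 0.33 for low nitrogen against control and 0.33 for rotifers against control. It was 0.17 for low nitrogen against rotifers and 0.13 for low nitrogen against control in cell groups. A median of −0.5 or less was reached by 46 windows in low nitrogen against control and by none in low nitrogen against rotifers or in cell groups. Of the 46 windows, 37 also reached it in rotifers against control, a contrast with the same control library. Chromosomes 1 and 17 held 11 of the 46 each, and chromosomes 9 and 12 held 7 each. Of all 560 windows, chromosomes 1, 17, 9 and 12 held 42, 35, 38 and 57 in that order. The 46 windows, 8.21% of all, held 24.8% of the placed lower genes. Both windows and genes were chosen on the same ratio, so a higher share there follows from the choice. A median of 0.5 or more was reached by 10 windows.

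**Figure D4:**
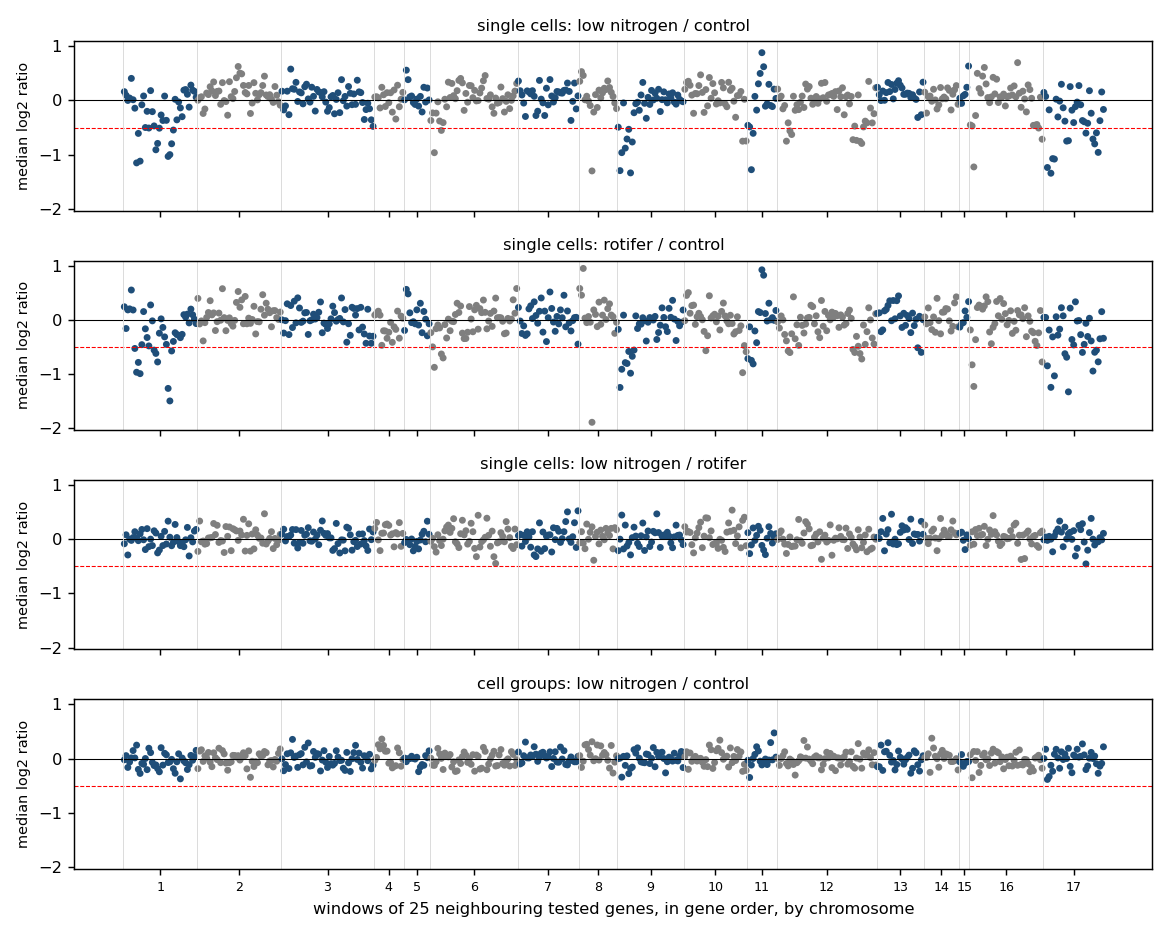
Each point is the median log2 ratio (vertical axis) of a window of 25 neighbouring tested genes, in gene order by chromosome (horizontal axis), with 1 panel for each contrast and a dashed line at −0.5. In both upper panels, which share the single-cell control library, 46 and 50 windows lie on or under the line, and none do in the lower 2 panels. In the top panel chromosomes 1 and 17 hold 11 of the 46 each, out of 42 and 35 windows.

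Neighbouring genes often shared the direction, though such shares also go up with the number of genes called. A lower gene had another lower gene next to it in 41.5% of cases, against 22.6% for genes that were not lower. For higher genes the same values were 24.5% and 15.8%. In low nitrogen against rotifers a lower gene had a lower neighbour in 20.3% of cases, against 14.8% for other genes, and in cell groups in 16.4% against 8.59%. Unbroken runs of at least 5 lower genes numbered 19 in low nitrogen against control, and such runs of higher genes 1. Against rotifers the longest run of lower genes was 4 genes, and in cell groups 4 genes. Of 14267 neighbouring pairs of tested genes, 74 overlap on the map.

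The longest run was 19 genes on chromosome 17, from 954732 to 1123665, each at least 2-fold lower in low nitrogen. Together these genes had 10077 counts in the single-cell control, 3684 with rotifers and 2210 in low nitrogen, a sum 3.91-fold lower in low nitrogen than in control (3.73 to 4.09). The summed levels were 1023, 661 and 262 CPM in that order. In 16 of the 19 the rotifer library was also at least 2-fold below control. In cell groups the same 19 genes had 3674, 2277 and 3446 counts under control, rotifers and low nitrogen.

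A run of 10 genes on chromosome 8, from 1557525 to 1621147, was nearly off outside the control. It had 5472 counts in control, 49 with rotifers and 259 in low nitrogen, 18.1-fold lower in low nitrogen than in control (15.97 to 20.6). Summed over the run, the level was 555 CPM in control, 30.7 CPM in low nitrogen and 8.79 CPM with rotifers, and between 2.94 and 16.6 CPM in the cell group libraries. No other library of the 6 came near the single-cell control there, and low nitrogen was the next highest.

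Other runs had the same form. A run of 9 genes on chromosome 9, from 178020 to 231892, had 1505 counts in control, 81 with rotifers and 100 in low nitrogen, and between 51 and 84 in cell groups. A run of 8 genes on chromosome 11, from 462302 to 522587, had 3223, 161 and 332 counts in single cells, and between 114 and 227 in cell groups. A run of 7 genes on chromosome 17, from 5154410 to 5211211, had 3856, 192 and 262 counts, and between 214 and 555 in cell groups. In each of the 3 runs the control library held several times the counts of any other library. The sums were 12.9-fold, 8.31-fold and 12.6-fold lower in low nitrogen than in control, in that order.

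Within the 19-gene run, 1 gene had a pattern of its own and was singled out after its values were seen. The gene from 1071629 to 1076195 on chromosome 17 had 1640 counts in control, 517 with rotifers and 9 in low nitrogen, and 4, 24 and 0 in cell groups. On the log2 scale it stood −6.74 from control and −5.90 from rotifers, so low nitrogen was the library apart among single cells. It had the widest ratio of all lower genes for which low nitrogen stood apart, and in cell groups it had at most 24 counts.

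The runs of higher genes were shorter and less extreme. The longest, 5 genes on chromosome 2 from 6707633 to 6726702, had 497 counts in control, 782 with rotifers and 1588 in low nitrogen, a 3.73-fold higher sum in low nitrogen than in control (3.37 to 4.13), and 2 of its genes overlap. In cell groups the run on chromosome 2 had 1128, 667 and 1224 counts, or 151, 127 and 147 CPM. A run of 4 genes on chromosome 5, from 826837 to 848072, had 1195, 3716 and 4461 counts, with rotifers and low nitrogen both above control. In cell groups this run had 2306, 1535 and 1567 counts, and low nitrogen was under control there, at 188 against 309 CPM. A run of 4 genes on chromosome 14, from 1385103 to 1400061, had 551, 682 and 1317 counts, and 865, 482 and 3791 in cell groups. The run on chromosome 14 was thus highest in low nitrogen in both growth forms.

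The ratio to control also went with gene length. The tested genes were put in 10 groups of equal size by the length of the gene in the table, introns included. The median log2 ratio of low nitrogen to control was 0.17 in the group of the shortest genes, of 286 to 2182 bases, and −0.30 in the group of the longest, of 10736 to 82983 bases. For rotifers against control the medians went from 0.22 to −0.41. For low nitrogen against rotifers they went the other way, from −0.07 to 0.10, and in cell groups from 0.02 to −0.12. The share of genes at least 2-fold lower in low nitrogen than in control went from 11.8% in the shortest to 19.6% in the longest group, and the share of higher genes from 11% to 3.96%. The 1399 lower genes with both treatments on the same side of control had a median length of 5352 bases, the 355 lower genes for which low nitrogen stood apart 4271 bases, and all tested genes 4686 bases. The part of length in the counts above was not tested, and with ratios centred within the 10 groups, an alternative chosen after seeing the data, 1157 genes were higher and 2103 lower.

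**Figure D5:**
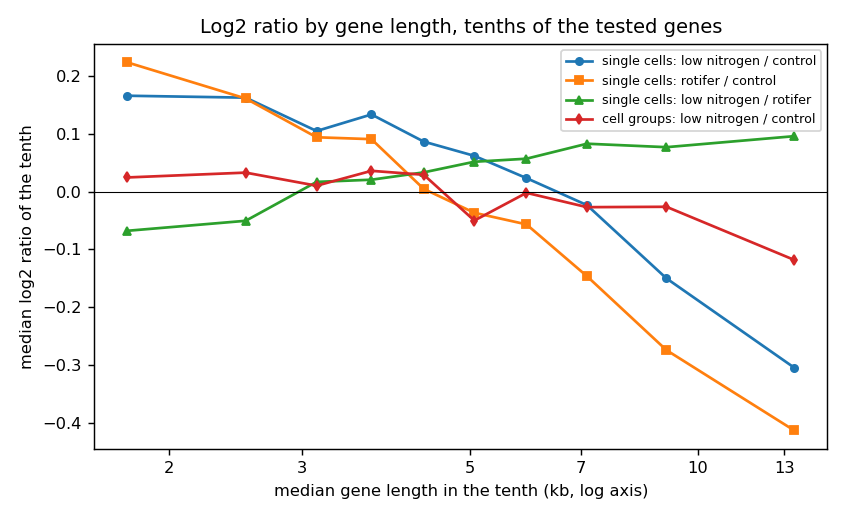
The median log2 ratio (vertical axis) is plotted for 10 groups of equal size by gene length against the median length in the group (kb, log axis), with 1 line for each contrast. Both lines against the single-cell control go down with length, from 0.17 to −0.30 for low nitrogen and from 0.22 to −0.41 for rotifers, while low nitrogen against rotifers goes from −0.07 to 0.10.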

How the data were processed

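RNA of the chemostats of each treatment was pooled by the authors, sequenced as paired reads, filtered with FastQC, mapped with HISAT2 to version 5.0 of the genome and counted per gene with HTSeq. Tool versions and the strand setting are not given in the sources used here, so overlapping and antisense genes cannot be told apart. The deposited counts are whole numbers per gene without normalization and were the basis of all values. The authors also deposited log2 values normalized with DESeq2, used for 1 alternative, and a table of their own comparisons (fold changes and p-values), not used here.

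Library totals ran from 5453218 to 9054895 counts. Counts were scaled with TMM factors over all 6 libraries (edgeR 4.0.16 in R 4.3.3; factors 0.888 to 1.12, trimming 30% of M and 5% of A values) and expressed as log2(CPM + 0.5). Genes with a mean of at least 1 CPM over the 3 single-cell libraries were kept. A gene was called at a 2-fold difference, with no test, since each condition had 1 library. Ratios have 95% exact (Clopper-Pearson) counting intervals, and a floor of 3 counts stands for 0. Gene order and length came from a RefSeq table of assembly v5.5, in whose genes 61 of 63 variant positions listed by the study lay. That table gives no gene names, so the planned lists of pathway genes could not be matched, and no sequences were read. By rule, unnamed genes are printed for the 2 widest ratios in each direction with at least 20 CPM in either library, beside the 7 genes named by the study. Cre17.g706000, from the study's variant list, and genes given by their place are outside that rule and were chosen after their values were seen. The comparison and the lists were chosen with earlier results of these data known. Alternatives were scaling by median-of-ratios size factors (DESeq2 1.42.0), library totals or upper quartiles, other pseudocounts (0.1 and 2 CPM), filters and folds, the authors' normalized values and, added after seeing the data, rotifers in place of control, centring by length, other windows and omission of chromosomes.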

Additional observations from a re-analysis of the deposited data

Results flagged for a closer look

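A pair of the genes described had opposite directions under low nitrogen in the 2 growth forms, in each case with 1 library a side, so the difference between growth forms was not tested. Cre13.g603550 stood at 4.97 above control on the log2 scale in single cells and at −1.26 in cell groups, a difference of 6.23. Its single-cell rotifer library was also above control, with 6513 counts against 272. Cre17.g706000 stood at −4.35 in single cells and at 2.08 in cell groups, a difference of −6.43. Its counts in cell groups were small, 2 in control and 23 in low nitrogen, and its single-cell rotifer library had 1 count.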

How the results depend on the processing

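In 291 values recomputed for 37 genes, including those given by their place, no gene at least 2-fold from control changed sign, and 29 values moved by more than the half-width of the counting interval. Of the genes under 2-fold, 2 changed sign, among them Cre01.g049826 (0.01, and −0.08 with library totals). The counts of 1276 higher and 2063 lower genes stayed within 1.5 times under every other scaling of the counts, with pseudocounts of 0.1 and 2 CPM and with no filter. Library totals shifted the median log2 ratio of rotifers to control to −0.32 and of low nitrogen to rotifers to 0.22. With a pseudocount of 2 CPM, 512 higher genes had rotifers on the same side of control, and low nitrogen stood apart from both in 97 higher and 208 lower genes. With a mean of at least 10 CPM, which leaves fewer genes, there were 703 higher and 972 lower genes, rotifers were on the same side in 479 and 650, low nitrogen stood apart in 72 and 194, and 13 windows had a median of −0.5 or less. The authors' normalized values gave 219 higher and 837 lower genes, 156 and 615 with rotifers on the same side, 18 and 39 with low nitrogen apart, and 16 windows. Higher genes were 20.7% of all called genes there, against 38.2% in the counts, and the cause was not tested. At 4-fold, the same counts were 176 and 684, 116 and 477, and 10 and 25. In alternatives added after seeing the data, rotifers in place of control left 1153 lower genes, and without chromosomes 1, 9, 12 and 17 there were 1169 lower genes, 754 with rotifers on the same side and 227 with low nitrogen apart. Windows and their alternatives were also added then, and windows of 50 genes gave 21 windows.

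Within the single-cell contrast no paired analysis was possible, because each condition had 1 library. Leaving out a replicate was not possible for the same reason, and the fixed lists of pathway genes were not run because the identifiers could not be matched to names. The same control library enters every ratio to control, and it stood above all other libraries in the runs of lower genes described. Its identity was not checked, so what is particular to that library and what goes with the nitrogen supply cannot be told apart where rotifers lay on the same side. Where low nitrogen stood apart, the same holds for what is particular to the 1 low-nitrogen library.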
